A study of Gallus gallus with 2 samples.

Results

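The genes described here encode heat shock proteins, their partner proteins (co-chaperones) and the factors that set their levels when proteins misfold. They were chosen by gene symbol from the table of all loci, as the symbols of the HSP, HSF, DNAJ, CCT, BAG, AHSA and PDIA families together with *TCP1*, *CANX*, *XBP1*, *ERN1*, *ATF4* and *ATF6*. The symbols *CALR*, *STIP1*, *DDIT3* and *HYOU1* were sought too, but no gene of the set carried them. The pattern matched 89 loci, of which 3 with merged gene names and 2 second loci of a symbol were left out, which gave 84 genes of 12798 gene symbols in the table. Of the 84, 73 reached at least 1 FPKM (a read density scaled to transcript length and library size) in the higher library and were compared. *HSF4* was above 0 but under 1 FPKM, and 10 were listed at 0 in both libraries.

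Both groups were 16-week-old female Lueyang chickens, a native breed in which some birds have black skin and others white skin. RNA came from a skin piece 8 mm across taken on the left back, and 3 birds of the 5 sampled per color were pooled into a single library of black skin (BS) and a single library of white skin (WS). With 1 library per color there was no replicate and no test, and every difference below is a difference between these 2 libraries. Fold changes are log2((BS FPKM + 1)/(WS FPKM + 1)), so a negative value means lower in BS. The deposited tables hold no read counts, so the depth behind a single value is unknown.

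Chaperones bind unfolded proteins and help them to fold or to be degraded. Small heat shock proteins hold damaged proteins, HSP70 and HSP90 refold them with ATP, J-domain and BAG proteins control HSP70, and barrel-shaped chaperonins enclose a folding protein. Chaperones of the endoplasmic reticulum (ER) fold secreted and membrane proteins, and their genes are raised through ATF6, through ERN1 and XBP1, and through ATF4 when the ER is overloaded. In skin the same genes serve keratinocytes, which make large amounts of keratin, and fibroblasts and pigment cells, which send collagen and melanosome proteins through the ER.

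Most chaperone genes stood at nearly the same level in both libraries, and *HSPB1* was the only one at least 2-fold apart with a pseudocount of 1 and the libraries not rescaled. The ratio of the deposited FPKM of *HSF2BP* was wider, 3.53 of WS over BS, at levels near 1 FPKM where the pseudocount narrows it. None of the 73 genes was at least 2-fold higher in BS, against 4.61% of 15020 loci and 2.77% of 9545 gene symbols. The single gene at least 2-fold lower compares with 5.69% of loci and 2.3% of gene symbols. Of the 73, 68 were within 1.5-fold, a margin that held 73.4% of loci and 83.1% of gene symbols. The median log2 fold change of the 73 genes was -0.01, beside -0.06 over all loci and -0.04 over all gene symbols. In BS 36 genes were higher and 37 lower by any margin, and 43.9% of loci were higher by any margin. The libraries can be scaled in other ways, and each of the 3 used here raises BS relative to WS. The split of higher against lower was 44 and 29 with the median log2 ratio of loci set to 0. It was 47 and 26 with equal upper quartiles, and 56 and 17 with equal totals apart from the 50 most abundant loci. Under these 3 scalings in turn, 60.3%, 64.4% and 76.7% of the 73 genes were higher, against 49.3%, 51.0% and 55.7% of loci. The last of these added 0.13 to the log2 fold change of abundant genes and moved the median of all loci to 0.06. Negative differences of that size therefore have no settled direction. No scaling used here lowers BS, so the direction of small positive differences was not put to the same trial.

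**Figure D1:**
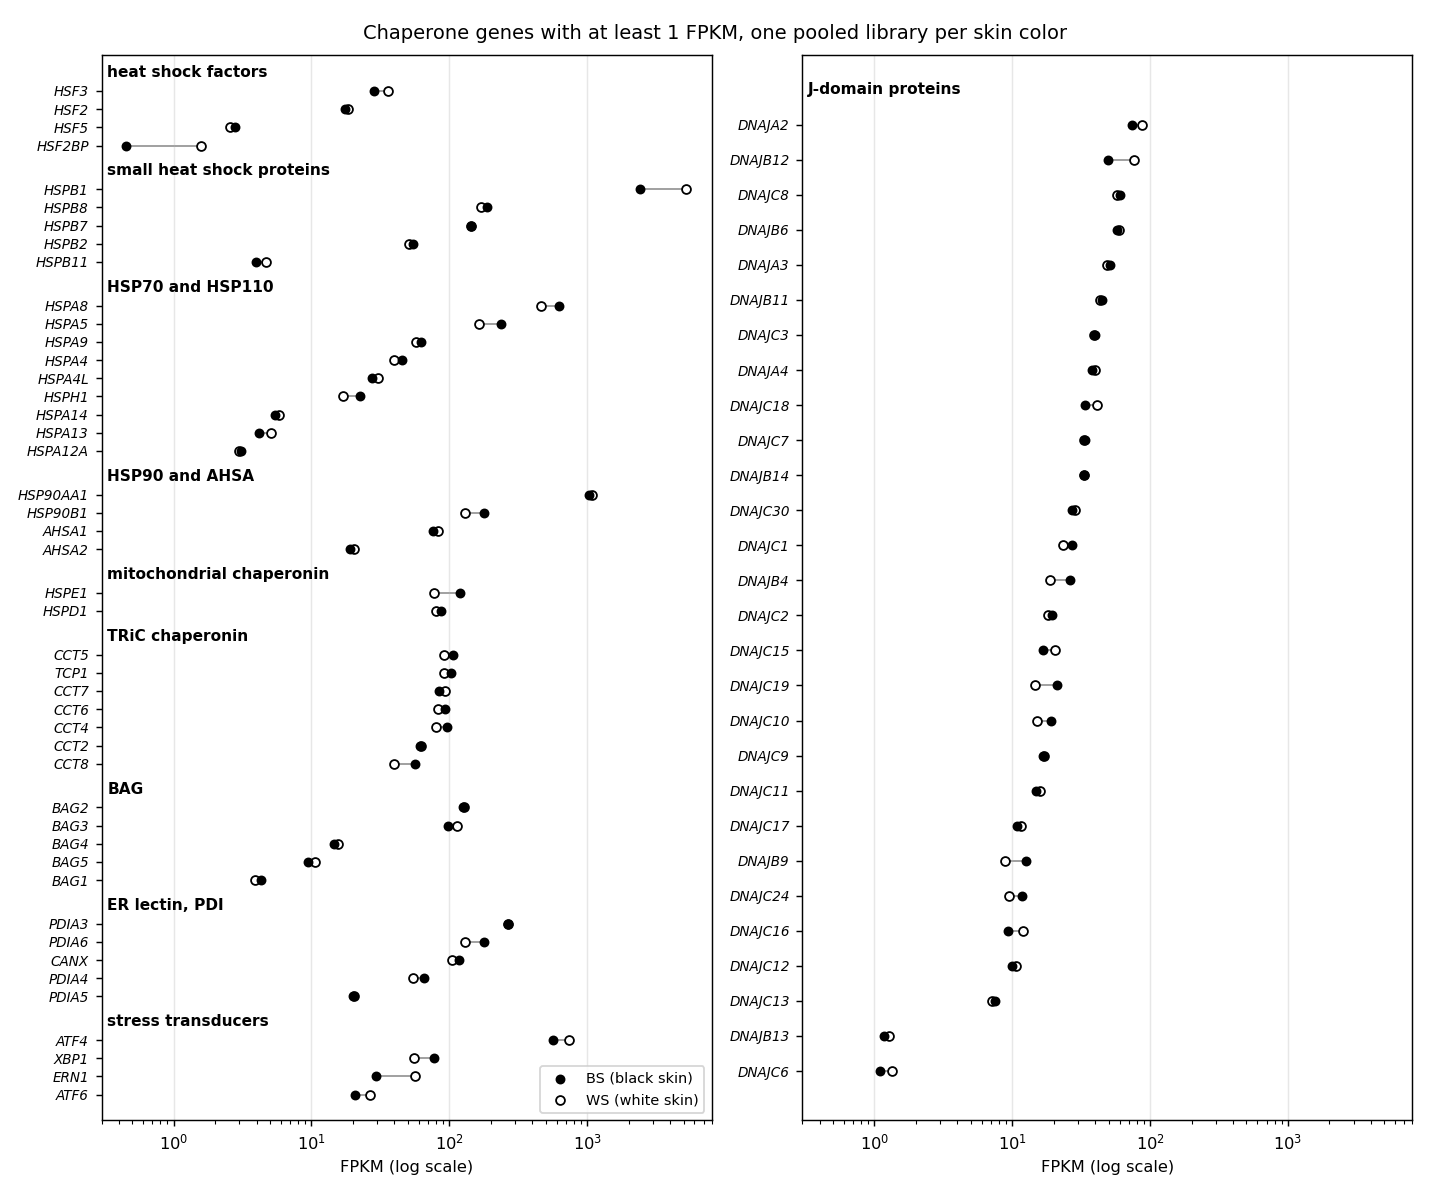
Level of each chaperone gene with at least 1 FPKM, in FPKM on a log axis, with families in blocks and genes ordered by mean level. Filled points are the BS library and open points the WS library, 1 pooled library each with no error bar. The points nearly coincide for most genes, and the widest gaps are those of *HSPB1*, *HSF2BP* and *ERN1*. *ERN1* is drawn at its chromosome 14 locus, and its chromosome 18 locus, not drawn, had a log2 fold change of -0.03.

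*HSPB1* encodes the small heat shock protein that in human epidermis is abundant in the upper, differentiating keratinocytes. It stood at 2413 FPKM in BS, against 5197 FPKM in WS, giving a log2 fold change of -1.11 and a ratio of WS over BS of 2.15. It ranked 48 among named genes in BS and 22 in WS, the highest of the 84 genes in both, and 4.18% of all loci had a lower log2 fold change. Its locus, XLOC_007726 on chromosome 19 from 4218161 to 4220558, spans 2398 bp and overlaps no other expressed locus. With equal totals apart from the 50 most abundant loci the log2 fold change was -0.97, short of 2-fold. Of 143 named genes that reached 1000 FPKM in either library, 10 stood 2-fold or more higher in BS and 18 stood 2-fold or more lower.

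Keratinocyte markers moved in the same direction. Of 16 markers listed, 12 were measured, and 11 of these were lower in BS, 7 of them at least 2-fold (2 with equal totals apart from the 50 most abundant loci). Of 9545 gene symbols, 5213 were lower by any margin and 2.3% at least 2-fold lower. The summed level of the markers was 2435 FPKM in BS, against 4921 FPKM in WS. *KRT5* and *KRT75* were listed at 0 in both, which is not read as absence of the transcript. *TP63*, which keeps basal cells dividing, was at 57.2 FPKM in BS, against 123 FPKM in WS, and the desmosomal gene *DSP* was at 228 FPKM and 491 FPKM. Red cell markers were lower in BS too, in 3 of 3 measured. Skeletal muscle markers were higher in 8 of 9 measured and smooth muscle markers in 3 of 3, beside 45.4% of gene symbols. Fewer keratinocytes and less RNA per keratinocyte cannot be told apart in whole skin. The part of any cell type in the difference of *HSPB1* was not tested.

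The other 4 small heat shock proteins measured, *HSPB2*, *HSPB7*, *HSPB8* and *HSPB11*, had log2 fold changes between -0.19 and 0.14. *HSPB8*, which works with *BAG3* in the disposal of damaged proteins, was at 187 FPKM in BS, against 169 FPKM in WS (log2 fold change 0.14). *HSPB7*, known from heart and skeletal muscle, was at 143 FPKM and 144 FPKM (-0.01). Summed, the small heat shock proteins other than *HSPB1* stood at 389 FPKM in BS, against 369 FPKM in WS, so that *HSPB1* was 6.21 times their sum in BS and 14.1 times in WS. *HSPB1* alone made up 28.9% of the summed FPKM of all 84 genes in BS and 47.5% in WS. Without it, the sums were 5938 FPKM in BS, against 5749 FPKM in WS, a ratio of BS over WS of 1.03.

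*HSPB2*, a small heat shock protein of muscle, stood at 54.5 FPKM in BS, against 51.1 FPKM in WS. Its neighbor *CRYAB*, another small heat shock protein of muscle and lens, was at 42.0 FPKM and 30.0 FPKM, a log2 fold change of 0.47. Each of these loci overlaps 15 other expressed loci, so their reads may be shared. *HSPB11*, which also serves transport in cilia, was at 3.96 FPKM and 4.67 FPKM (-0.19). Of the skeletal muscle markers, 8 of 9 measured were higher in BS, beside 45.4% of gene symbols. The markers had a summed level of 25049.5 FPKM in BS, against 14523 FPKM in WS. Among them *ACTA1*, the skeletal actin, was at 17804 FPKM and 9387 FPKM, while *DES*, desmin, was at 2208 FPKM and 2372 FPKM (-0.10). The loci of *ACTA1* and *DES* overlap 3 and 14 other expressed loci, so their reads may be shared too. *TNNC2* was listed at 0 in both. The part of the muscle markers in the levels of *HSPB2*, *HSPB7* and *CRYAB* was not tested.

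**Figure D2:**
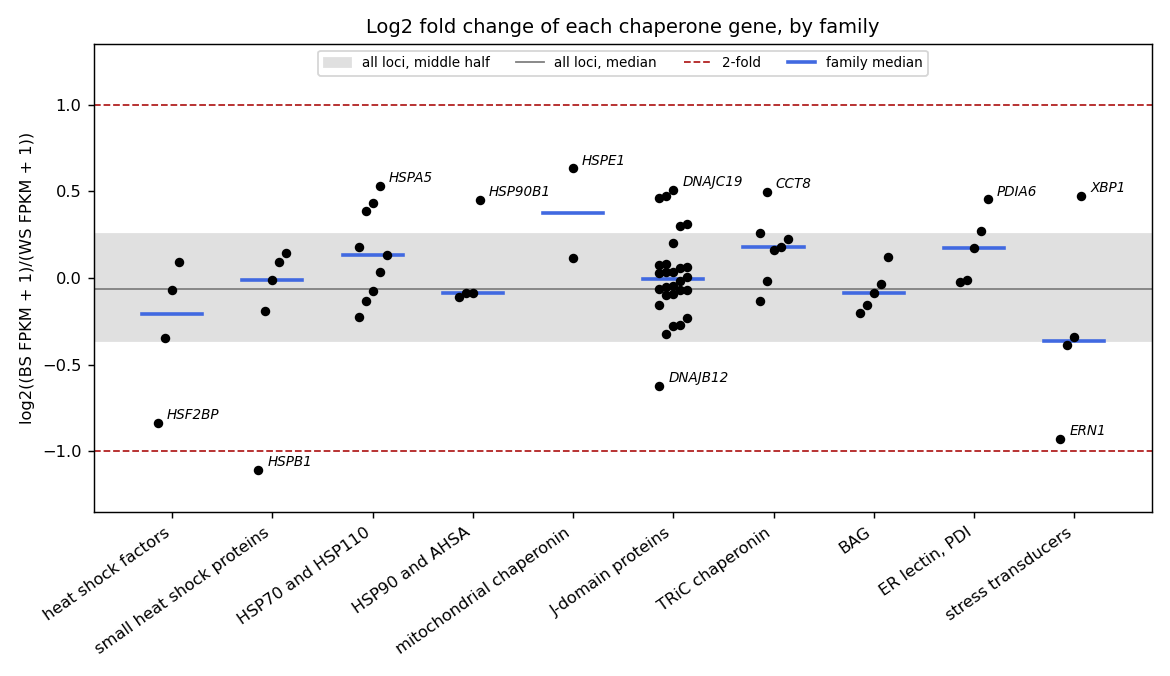
Log2 fold change of BS over WS for each chaperone gene with at least 1 FPKM, by family. Points are genes, blue bars family medians, the grey band the 25th to 75th percentile of all loci (-0.36 to 0.25), the grey line their median and the dashed lines 2-fold; *HSPB1* at -1.11 is the only point past 2-fold, and it stands at -0.97 with equal totals apart from the 50 most abundant loci.

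The heat shock factors are the transcription factors that switch on heat shock genes. *HSF3*, the factor that answers heat in chicken cells, was at 28.3 FPKM in BS, against 36.2 FPKM in WS, giving a log2 fold change of -0.34. *HSF2*, a factor active in development, was at 17.5 FPKM and 18.3 FPKM (-0.07), and *HSF5* was at 2.81 FPKM and 2.58 FPKM (0.09). *HSF2BP*, which binds HSF2 and acts in meiosis in mouse, was at 0.45 FPKM in BS, against 1.59 FPKM in WS. Its log2 fold change of -0.84 was -1.62 with a pseudocount of 0.1, and its locus overlaps that of another expressed gene. *HSF4*, the factor of the mammalian lens, was at 0.23 FPKM and 0.0596 FPKM, and *HSF1* was listed at 0 in both.

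Of the 9 HSP70 proteins and HSP110 relatives, 6 were higher and 3 lower in BS by any margin, beside 45.4% of gene symbols higher. *HSPA8*, the constitutive HSP70 of the cytosol, was at 624 FPKM in BS, against 463 FPKM in WS (log2 fold change 0.43). *HSPA5*, the HSP70 of the ER known as BiP, was at 239 FPKM and 165 FPKM (0.53), and *HSPA9*, the mitochondrial HSP70, was at 62.7 FPKM and 57.2 FPKM (0.13). Of the HSP110 genes, whose products recharge HSP70 with ATP, *HSPH1* was at 22.4 FPKM and 16.9 FPKM (0.39), *HSPA4* at 45.0 FPKM and 39.6 FPKM (0.18) and *HSPA4L* at 27.5 FPKM and 30.2 FPKM (-0.13).

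The remaining members had the lowest levels of the family. *HSPA14*, which acts at the ribosome, was at 5.46 FPKM in BS, against 5.81 FPKM in WS (-0.08). *HSPA12A*, a divergent relative, was at 3.06 FPKM and 2.96 FPKM (0.03), and *HSPA13*, an HSP70 of the ER, was at 4.18 FPKM and 5.06 FPKM (-0.23). The median of the 9 genes was 0.13. All 3 scalings raise BS, so none of them could turn it negative. The summed level of the 9 genes was 1033 FPKM in BS, against 785 FPKM in WS, a ratio of 1.32. A locus named *HSP70*, the symbol under which the heat-inducible gene of chicken goes, falls outside the symbol pattern and was looked up after the values were seen. It stood at 727 FPKM in BS, against 883 FPKM in WS, giving a log2 fold change of -0.28, in the direction opposite to *HSPA8*. The sum and ratio of the 9 genes leave this locus out, though its level was above that of each of them in both libraries.

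*HSP90AA1*, the cytosolic HSP90 that matures kinases and steroid receptors, was the second most abundant of the 84 genes, with 1027 FPKM in BS, against 1092 FPKM in WS. Its log2 fold change was -0.09, and those of its ATPase activators *AHSA1* (76.3 FPKM in BS, 82.3 FPKM in WS) and *AHSA2* (19.2 FPKM and 20.5 FPKM) were -0.11 and -0.09. These small differences turned positive with equal totals apart from the 50 most abundant loci. *HSP90B1*, the HSP90 of the ER known as GRP94, was at 179 FPKM in BS, against 131 FPKM in WS, giving a log2 fold change of 0.45. The ratio of *HSP90AA1* over *HSP90B1* was therefore 5.74 in BS and 8.37 in WS. The locus that merges *HSP90AB1* with *SLC29A1*, which cannot be split, was at 95.6 FPKM and 124 FPKM (-0.37).

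Of 20 other partners of HSP90 and HSP70 listed, 16 were measured and none was at least 2-fold apart. Of all gene symbols 2.77% were at least 2-fold higher and 2.3% at least 2-fold lower. The median log2 fold change of the 16 was -0.01. *HSBP1*, which binds heat shock factor trimers, was at 467 FPKM in BS, against 474 FPKM in WS, and the immunophilin *FKBP4* was at 80.4 FPKM and 80.3 FPKM. The 2 beyond 0.5 on the log2 scale were *STUB1*, a ubiquitin ligase that marks chaperone clients for degradation (100.3 FPKM in BS, 169 FPKM in WS, -0.75), and *UNC45B*, the myosin chaperone of muscle (10.1 FPKM and 6.77 FPKM, 0.52). *CDC37L1* and *PTGES3* were listed at 0 in both libraries.

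*HSPE1* and *HSPD1* encode the lid (HSP10) and the barrel (HSP60) of the mitochondrial chaperonin. *HSPE1* had the highest log2 fold change of the 73 genes, 0.63, with 120.4 FPKM in BS, against 77.3 FPKM in WS, a ratio of 1.56. *HSPD1* was at 86.9 FPKM and 80.3 FPKM (0.11). The genes lie 2352 bp apart on chromosome 7 in the deposited coordinates, and the level of *HSPE1* over that of *HSPD1* was 1.39 in BS and 0.96 in WS.

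A pair of J-domain genes of the mitochondrial import motor, which pulls proteins through the inner membrane, differed in opposite directions. *DNAJC19* was at 21.3 FPKM in BS, against 14.7 FPKM in WS (0.51), and *DNAJC15* was at 16.6 FPKM and 20.4 FPKM (-0.28). *DNAJA3*, the J-domain partner of the mitochondrial HSP70, was at 50.8 FPKM and 48.7 FPKM (0.06). Of 18 other mitochondrial chaperones and proteases listed, 14 were measured, all within 0.5 on the log2 scale, beside 7453 of 9545 gene symbols. The median of the 14 was 0.00. The most abundant were *PHB2*, a prohibitin (139 FPKM in BS, 159 FPKM in WS), *PAM16*, of the import motor (98.6 FPKM and 118 FPKM), and the protease gene *SPG7* (67.5 FPKM and 66.7 FPKM). The list includes *TRAP1*, the mitochondrial HSP90, at 25.1 FPKM in BS, against 25.5 FPKM in WS, and the protease *LONP1*, at 21.3 FPKM and 21.2 FPKM.

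The J-domain proteins bring clients to HSP70 and start its ATPase, and they formed the largest family, with 35 genes. Of these 28 were measured, 14 higher and 14 lower in BS by any margin, and none was 2-fold apart. Of all gene symbols 45.4% were higher by any margin, 2.77% at least 2-fold higher and 2.3% at least 2-fold lower. The median of the J-domain genes was below 0 by less than 0.01 and turned positive under each of the 3 scalings. The most abundant was *DNAJA2*, an HSP40 of the cytosol, with 74.1 FPKM in BS, against 87.1 FPKM in WS (-0.23). *DNAJC8*, a component of the splicing machinery, was at 60.4 FPKM and 57.4 FPKM (0.07), and *DNAJB6*, which keeps aggregation-prone proteins soluble, was at 57.7 FPKM and 59.5 FPKM (-0.04).

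The widest gap among J-domain genes was that of *DNAJB12*, anchored in the ER membrane with its J domain in the cytosol, at 49.2 FPKM in BS, against 76.2 FPKM in WS (-0.62). Its close relative *DNAJB14*, also of the ER membrane, stood at 33.4 FPKM and 33.2 FPKM (0.01). *DNAJB4*, an HSP40 of the cytosol, was at 26.4 FPKM in BS, against 18.7 FPKM in WS (0.47). The lowest of the measured J-domain genes were *DNAJC6*, an auxilin that uncoats clathrin vesicles, with 1.1 FPKM in BS, against 1.33 FPKM in WS, and *DNAJB13*, of the cilium, with 1.18 FPKM and 1.28 FPKM. The loci that merge *DNAJC5* (14.5 FPKM in BS, 15.8 FPKM in WS) and *DNAJC27* (8.20 FPKM and 10.9 FPKM) with another name are not among the 28.

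TRiC is the chaperonin of the cytosol, a double ring built from 1 copy of each subunit per ring, and folds actin and tubulin. The 7 subunits measured stood within a narrow range of 56.1 to 107 FPKM in BS and 39.4 to 92.7 FPKM in WS. *CCT5* was at 107 FPKM in BS, against 91.4 FPKM in WS (0.23), *TCP1* at 102 FPKM and 91.2 FPKM (0.16) and *CCT7* at 84.5 FPKM and 92.7 FPKM (-0.13). *CCT8* had the lowest level in both, with 56.1 FPKM in BS, against 39.4 FPKM in WS, and the largest log2 fold change of the family, 0.50. The ratio of BS over WS ran from 0.91 to 1.42 among subunits of the same complex. The highest subunit stood 1.91-fold above the lowest in BS and 2.35-fold in WS.

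Of the 7 subunits, 5 were higher in BS by any margin, beside 45.4% of gene symbols. The family median was 0.18, and the 3 scalings, which all raise BS, could only move it up. It was -0.02 over the 3 subunits whose loci overlap no other expressed locus (*CCT2*, *CCT5* and *CCT7*). The prefoldins, which hand actin and tubulin to TRiC, and the tubulin cofactors were listed together with *PDCL3*, *PDCL* and *TXNDC9*. Of the 14 genes listed 9 were measured, none 2-fold apart, beside 2.77% of gene symbols 2-fold higher and 2.3% 2-fold lower. The median of the 9 was -0.03, which turned positive under each of the 3 scalings. *PDCL3* was at 48.3 FPKM in BS, against 49.5 FPKM in WS (-0.03), and *PDCL*, a relative, at 31.7 FPKM and 44.4 FPKM (-0.48). *PFDN1* was beyond 0.5, at 127 FPKM in BS, against 82.0 FPKM in WS (0.62), and its locus overlaps another, while *PFDN5* and *TBCA* were listed at 0.

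BAG proteins release clients from HSP70 by exchanging its nucleotide. *BAG2* was at 126 FPKM in BS, against 129 FPKM in WS (-0.03), and *BAG3*, a stress-induced member that pairs with *HSPB8*, was at 98.0 FPKM and 113 FPKM (-0.20). *BAG4* (14.6 FPKM in BS, 15.5 FPKM in WS), *BAG5* (9.40 FPKM and 10.6 FPKM) and *BAG1* (4.33 FPKM and 3.91 FPKM) had log2 fold changes of -0.09, -0.15 and 0.12. The family median of -0.09 turned to 0.04 with equal totals apart from the 50 most abundant loci.

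Of the 84 genes, 14 encode chaperones that act in the lumen of the ER. Of these 13 were measured, and 10 of them (76.9%) were higher by any margin, against 45.4% of gene symbols. Only *HSPA5* was above 0.5 on the log2 scale, beside 13.9% of loci and 11.1% of gene symbols. None of the 13 was below -0.5, beside 18.1% of loci and 10.8% of gene symbols. None was 2-fold apart, beside 2.77% of gene symbols 2-fold higher and 2.3% 2-fold lower. Summed over the genes, the level was 1211 FPKM in BS, against 1006 FPKM in WS, a ratio of 1.20. The median log2 fold change was 0.20, between 0.20 and 0.33 under the scalings of the libraries, which all raise BS and could not lower it. It was 0.04, with 11 of 17 genes higher, when *DNAJB12*, *DNAJB14*, *DNAJC16* and *DNAJC18*, J-domain genes of the ER membrane, were added. Among the 10 higher genes, *DNAJB11* and *DNAJC3* were above 0 by 0.04 and 0.03 on the log2 scale. The grouping by compartment followed textbook knowledge and was filled in after the values were seen.

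The 4 ER chaperones with the highest log2 fold changes, picked by these values, lay close together. Besides *HSPA5* and *HSP90B1*, *PDIA6*, a disulfide isomerase, was at 178 FPKM in BS, against 129 FPKM in WS (0.45), and *DNAJB9*, a J-domain partner of BiP, was at 12.5 FPKM and 8.81 FPKM (0.46). *DNAJC10*, which reduces disulfides of misfolded proteins, was at 19.1 FPKM and 15.2 FPKM (0.31), and the disulfide isomerase *PDIA4* was at 65.9 FPKM and 54.4 FPKM (0.27). The log2 fold changes of *HSPA5*, *HSP90B1*, *PDIA6* and *DNAJB9* lay between 0.45 and 0.53, above at least 84.5% of loci. Genes outside the ER lumen fell in the same range, among them *DNAJB4* (0.47), *CCT8* (0.50) and *DNAJC19* (0.51).

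The remaining lumenal genes lay between -0.23, the value of *HSPA13* given above, and 0.20. *DNAJC1*, a J-domain partner of BiP, was at 27.2 FPKM in BS, against 23.5 FPKM in WS (0.20). *PDIA3*, the disulfide isomerase that works with the lectin chaperones on glycoproteins, was the most abundant of the group, with 265 FPKM in BS, against 267 FPKM in WS (-0.01). *CANX*, one of those lectins, was at 117 FPKM and 104 FPKM (0.17), and *PDIA5* was at 20.0 FPKM and 20.4 FPKM (-0.03). The BiP partners *DNAJB11* (44.7 FPKM in BS, 43.6 FPKM in WS) and *DNAJC3* (39.9 FPKM and 39.1 FPKM) had log2 fold changes of 0.04 and 0.03. *PDIA2* was listed at 0 in both libraries. The locus that merges *HYOU1*, a nucleotide exchange factor of BiP, with *PHLDB1* was at 54.1 FPKM in BS, against 52.9 FPKM in WS.

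**Figure D3:**
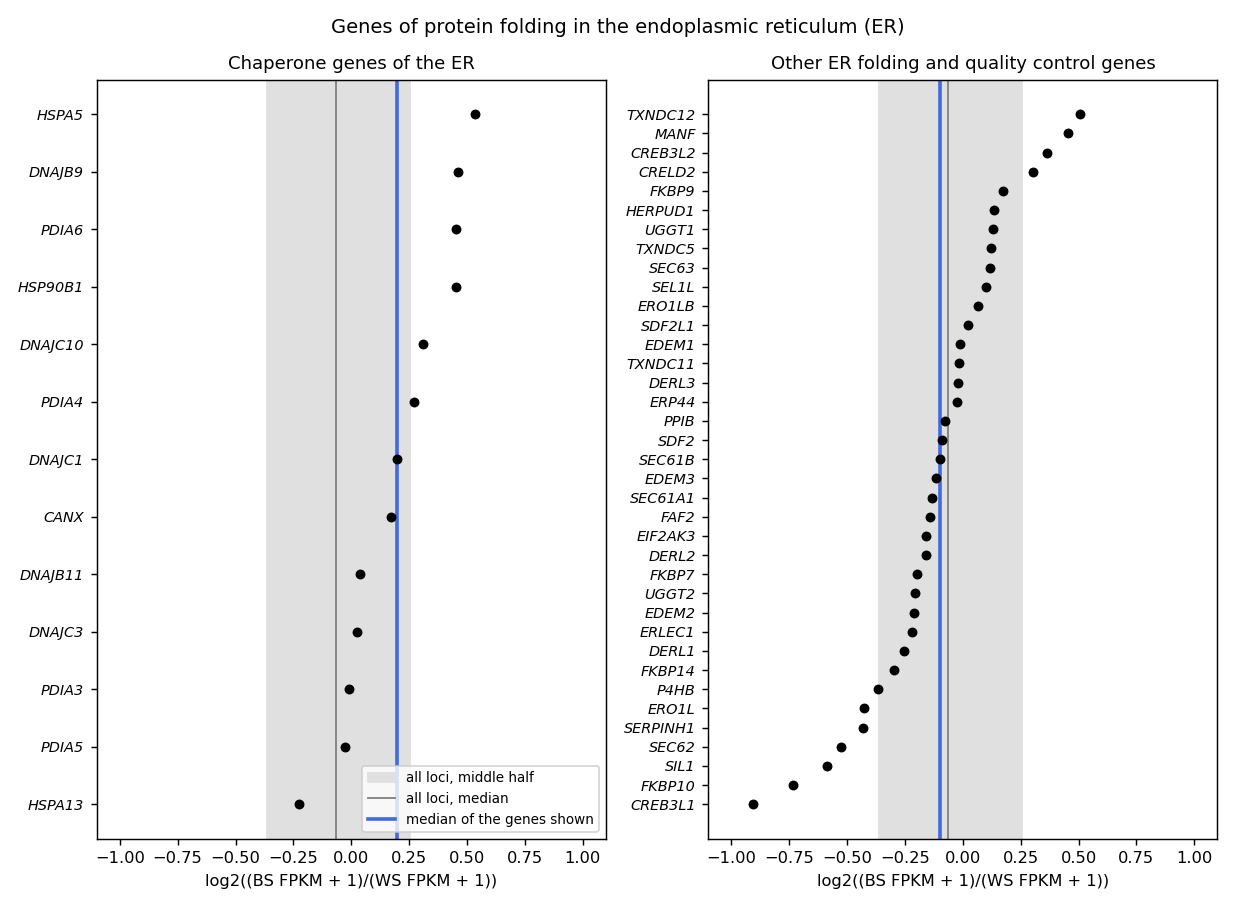
Log2 fold change of BS over WS for the 13 chaperone genes of the ER lumen (left) and for 37 other genes of ER folding and quality control (right). Points are genes, the blue line is the median of the genes shown (0.20 left, -0.10 right), the grey band the 25th to 75th percentile of all loci and the grey line their median. *HSPA5* is highest at left and *CREB3L1* lowest at right, and the right-hand median turns positive with equal totals apart from the 50 most abundant loci.

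Further genes of ER folding and quality control, some of them also chaperones and isomerases of the lumen, fall outside the symbol pattern. The difference between this list and the 13 genes above was not tested. Of 49 listed, 37 were measured, 12 higher and 25 lower in BS by any margin, beside 45.4% of gene symbols higher. None of the 37 was 2-fold apart, beside 2.77% of gene symbols 2-fold higher and 2.3% 2-fold lower. The median of the 37 was -0.10, which became 0.04 with equal totals apart from the 50 most abundant loci. *MANF*, a secreted ER stress protein, was at 238 FPKM in BS, against 173 FPKM in WS (0.45), and *TXNDC12*, a thioredoxin of the ER, was at 45.1 FPKM and 31.4 FPKM (0.51). *HERPUD1*, a gene of ER-associated degradation that responds to ER stress, was at 28.5 FPKM and 25.9 FPKM (0.13). All of these are among the 12 higher genes. Of the 25 lower genes, *EDEM1* was at 32.5 FPKM in BS, against 32.8 FPKM in WS (-0.01). *DERL1* was at 40.1 FPKM and 48.0 FPKM (-0.26), and *ERO1L* at 26.7 FPKM and 36.2 FPKM (-0.43).

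In this list 4 of the 37 genes measured were below -0.5 on the log2 scale, beside 10.8% of gene symbols and 18.1% of loci. The 4 include *FKBP10*, a chaperone of procollagen, at 90.7 FPKM in BS, against 152 FPKM in WS (-0.74). Another is *CREB3L1*, an ER-bound transcription factor, at 45.5 FPKM and 86.1 FPKM (-0.91). Relatives of these went in both directions. *FKBP9* was at 145 FPKM in BS, against 128 FPKM in WS (0.17), and *CREB3L2* at 40.6 FPKM and 31.3 FPKM (0.36). *FKBP7* was at 69.0 FPKM in BS, against 79.3 FPKM in WS (-0.20), and *FKBP14* at 15.3 FPKM and 19.1 FPKM (-0.30). Of the 3 most abundant genes of the list, *SERPINH1*, the collagen chaperone HSP47, was at 585 FPKM and 789 FPKM (-0.43), and *P4HB*, a disulfide isomerase and subunit of prolyl hydroxylase, was at 303 FPKM and 391 FPKM (-0.36). *PPIB*, an isomerase of prolines, was at 605 FPKM in BS, against 638 FPKM in WS (-0.08). The other 2 below -0.5 were the translocon gene *SEC62* (100.1 FPKM in BS, 145 FPKM in WS, -0.53) and *SIL1*, a nucleotide exchange factor of BiP (18.1 FPKM and 27.7 FPKM, -0.59). Among 4 fibroblast markers measured, *COL1A2* was at 2852 FPKM in BS, against 6495 FPKM in WS, *DCN* at 694 FPKM and 1082 FPKM, *LUM* at 311 FPKM and 303 FPKM and *PDGFRA* at 38.7 FPKM and 31.2 FPKM. The fibroblast markers thus split 2 lower and 2 higher, and their part in these differences was not tested.

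The transducers of ER stress differed among themselves. *XBP1*, the factor spliced by ERN1, was at 77.5 FPKM in BS, against 55.4 FPKM in WS (0.48). *ATF4*, the factor translated when initiation is blocked, was at 563 FPKM and 736 FPKM (-0.39), at a locus that overlaps 9 other expressed loci. *ATF6*, the membrane-bound sensor, was at 20.7 FPKM and 26.5 FPKM (-0.34). The files call that gene *ATF6*, whereas the annotation of GRCg7b names the gene between the same neighbors, *SELP* and *OLFML2B*, *ATF6B*. FPKM of a gene do not separate spliced from unspliced *XBP1*.

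The name *ERN1*, the sensor kinase also known as IRE1, is carried by 2 loci. The one with the higher mean, which the rule took, is XLOC_005876 on chromosome 14, spans 962 bp and was at 29.2 FPKM in BS, against 56.4 FPKM in WS (-0.93). The other, XLOC_007339 on chromosome 18, spans 33416 bp and was at 8.99 FPKM and 9.2 FPKM (-0.03), and GRCg7b places *ERN1* on chromosome 18. With that locus the median of the 4 transducers was -0.19 in place of -0.36. *EIF2AK3*, the remaining sensor of ER stress, was at 6.12 FPKM in BS, against 6.95 FPKM in WS (-0.16).

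Known targets and kinases of the stress response that runs through *ATF4* went in both directions. Of 20 listed, 10 were measured, 4 higher and 6 lower in BS, beside 45.4% of gene symbols higher. The median of the 10 was -0.18, and -0.33 over loci that overlap no other. The count at least 2-fold lower was 2, beside 2.3% of gene symbols. It was 1 with a pseudocount of 5, with equal upper quartiles, and with equal totals apart from the 50 most abundant loci. The last setting also put 1 gene at least 2-fold higher. *CEBPB*, a transcription factor, was at 93.7 FPKM in BS, against 212 FPKM in WS (-1.17), and *PHGDH*, which starts serine synthesis, was at 36.0 FPKM and 76.7 FPKM (-1.07). On the other side, *ATF3* was at 21.6 FPKM in BS, against 11.3 FPKM in WS (0.88) and *CHAC1*, which degrades glutathione, was at 6.03 FPKM and 3.14 FPKM (0.76). *CEBPG*, a partner of ATF4, was at 53.5 FPKM and 68.3 FPKM (-0.35). *VLDLR* and *PSAT1* were listed at 0.

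Further stress genes listed with the small heat shock proteins gave 7 measured of 11, none 2-fold apart. Of all gene symbols 2.77% were at least 2-fold higher and 2.3% at least 2-fold lower. *CLU*, a secreted chaperone, was at 32598 FPKM in BS, against 33585 FPKM in WS (-0.04), and its locus overlaps another. *UBB*, a ubiquitin gene, was at 1645 FPKM in BS, against 1101 FPKM in WS (0.58), and its locus overlaps another as well. *HMOX1*, which degrades heme, was at 38.2 FPKM in BS, against 44.0 FPKM in WS (-0.20).

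**Figure D4:**
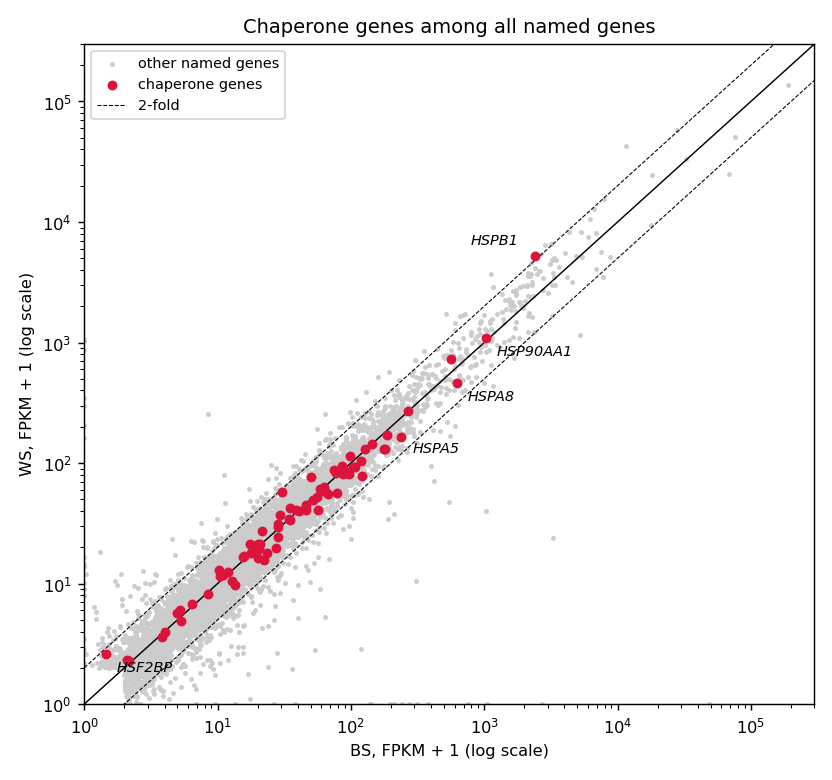
Level in BS (horizontal axis) against level in WS (vertical axis) for all named genes that reached 1 FPKM in either library, as FPKM + 1 on log axes. Red points are the 73 chaperone genes, grey points the other named genes, the solid line equality and the dashed lines 2-fold; apart from *HSPB1* the red points lie between the dashed lines.

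Of the 10 genes listed at 0 in both libraries, 8 lie on sequence where every locus was at 0. *DNAJA1*, *DNAJB5*, *DNAJC21*, *DNAJC25* and *HSPB3* lie on chromosome Z, where none of 791 loci was above 0. *DNAJC14*, *DNAJC22* and *HSF1* lie on unplaced sequence, where none of 1285 loci was above 0. *DNAJC5B* and *PDIA2* lie on chromosomes 2 and 14, where their loci overlap 12 and 1 other expressed loci. A value of 0 on chromosome Z or on unplaced sequence is given as listed and not as absence of the transcript. The same holds for *KRT5*, *KRT75* and *PTGES3*, listed at 0 on a separate sequence named E22C19W28_E50C23. Members of the families under other names, such as *CALR*, *STIP1*, *DDIT3* and *CCT3*, were not analysed here.

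Markers of other cell types also stood at different levels in the libraries. Melanocyte markers were at a summed 179 FPKM in BS, against 72.8 FPKM in WS, with 7 of 8 higher and *MITF* the exception. Smooth muscle markers were higher in 3 of 3 measured (1190.2 FPKM in BS, 505 FPKM in WS), leukocyte markers in 6 of 6 (184 FPKM and 148 FPKM), and red cell markers were lower in 3 of 3 (2604 FPKM and 5194 FPKM). Of all gene symbols 45.4% were higher by any margin. The 2 endothelium markers stood at 44.7 FPKM in BS, against 42.6 FPKM in WS. A single locus held 30.7% of summed FPKM in BS and 54.7% in WS. The part of each in the differences of chaperone genes was not tested.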

How the data were processed

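The authors pooled mRNA of 3 birds per color, sequenced 1 library each and deposited FPKM per locus. Alignment used Bowtie according to the paper, while Cuffdiff and galGal4 come from the processing notes of the submitters. Versions are not given in the sources used here. Deposited coordinates on chromosome 1 reach 200985987, beyond that chromosome in galGal4, so positions are printed unaltered and their build is unsettled. The deposited fold changes, p values, q values and marks of significance are the authors' own and were not used. A second table repeats a subset of the loci.

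Log2 ratios used a pseudocount of 1, for loci whose higher library held at least 1 FPKM, leaving out 5 failed loci and taking the highest-mean locus per symbol. A 2-fold difference was counted. Alternatives were pseudocounts of 0.1 and 5, no filter or 5 FPKM, 3 scalings, sums over loci and loci overlapping no other. Genes named were those 2-fold apart, beyond 0.5 on the log2 scale, listed at 0, or most abundant or extreme in a family, and, of other lists, the most abundant and those 2-fold apart. *HSP70*, *CRYAB*, cell type markers and further genes of the lists were named after their values were seen. Members and lists were chosen with earlier results of these data known. Loci overlap where their deposited ranges do. Of the 84 symbols, 78 lie on the same chromosome in GRCg7b. Sequences were not analysed here, and 1 gene of the lists is not reported here. The procedure was tested on simulated data. Python 3.11.15, pandas 2.3.3, numpy 2.4.6 and matplotlib 3.10.9 were used.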

Additional observations from a re-analysis of the deposited data

How the results depend on the processing

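The count of chaperone genes at least 2-fold higher in BS was 0 under every alternative run. The count at least 2-fold lower, 1 in the values reported, was 2 with a pseudocount of 0.1, where *HSF2BP* joined *HSPB1*, and 0 with totals apart from the 50 most abundant loci set equal, where *HSPB1* stood at -0.97. The median log2 fold change of the TRiC subunits was -0.017 over loci that overlap no other, where 3 of 7 subunits were left. The median of the fibroblast markers, -0.30 in the main setting, turned to 0.17 over the same kind of loci, where only *LUM* and *PDGFRA* were left. Of alternatives chosen after the data were seen, the ER median was 0.036 with J-domain genes of the ER membrane added, and the median of the stress transducers was -0.19 with *ERN1* at its chromosome 18 locus. Each color had 1 library, so no replicate could be left out. No paired analysis was possible because the groups hold 1 library each. Read counts behind the FPKM are unknown, which limits what can be said of genes near 1 FPKM such as *HSF2BP*, *DNAJC6* and *DNAJB13*.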
